A study of Mus musculus with 4 samples.

Results

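Caspases are cysteine proteases that carry out programmed cell death, and this report describes the transcripts of 7 of them together with *Apaf1* in mouse colonic epithelium during colitis. The 8 genes were taken by their symbols, *Casp1*, *Casp2*, *Casp4*, *Casp6*, *Casp8*, *Casp9*, *Casp12* and *Apaf1*, and all 8 were found, each once, among the 16015 genes listed. Bulk RNA sequencing was available for 2 mice labelled wild type and 2 mice labelled *Bmal1* cKO, 1 library per mouse, to ask how loss of the clock factor BMAL1 from the gut epithelium changes the transcriptome of the injured colon. The *Bmal1* cKO mice carried Villin-CreERT2 and *Bmal1* fl/fl, so that Cre, switched on by tamoxifen injected on 5 consecutive days, acts only in gut epithelium, where the Villin promoter is active. The mice labelled wild type are called control here, as in the study, which describes its controls as *Bmal1* fl/fl littermates, and whether they also received tamoxifen was not given in the sources used here. All were on a C57BL/6 background and 2 to 4 months old, and all drank 3% dextran sulfate sodium (DSS), a polysaccharide that injures the colonic lining, for 5 days and then water for 2 days. Colonic epithelial cells were taken on day 7 by chelation and scraping with no sorting described, so other cells could remain, and in bulk RNA fewer cells of a type and less RNA per cell cannot be told apart.

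Both inflammatory and apoptotic members of the family are compared here. The inflammatory caspases are caspase-1, which inflammasomes activate to mature interleukin-1β and interleukin-18 and to cut the pore-former gasdermin D, caspase-4 (called caspase-11 in the mouse), which senses bacterial lipopolysaccharide in the cytosol, and their relative caspase-12. The apoptotic caspases are the initiators caspase-2, caspase-8 and caspase-9, which are activated on protein platforms, and the executioner caspase-6. *Apaf1* encodes the scaffold that assembles with cytochrome c into the apoptosome, the platform of caspase-9. Colonic epithelial cells express inflammasome receptors, caspase-1 and interleukin-18, which serve in defence against microbes. All of these enzymes are made as inactive precursors, so a transcript level is not a measure of their activity.

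*Casp1*, *Casp4* and *Casp12* lie side by side on the plus strand of chromosome 9 of GRCm38, at 5298517 to 5307265, 5308828 to 5336783 and 5345430 to 5373032, with 1562 and 8646 bases between them. The others are spread over the genome, with *Casp2* at chromosome 6 (42264985 to 42282508), *Casp8* at chromosome 1 (58795374 to 58847503), *Casp9* at chromosome 4 (141793612 to 141815976) and *Casp6* at chromosome 3 (129901425 to 129914103), all on the plus strand, and *Apaf1* on the minus strand of chromosome 10 (90989311 to 91082770). All 8 are annotated as protein-coding, and the reads were counted over whole genes. The promoters of the neighbours *Casp1*, *Casp4* and *Casp12* are shown because their windows, unlike those of the other genes, hold matches to the short motifs searched for. Whether these motifs bear on expression was not tested. Each window is RefSeq sequence (GRCm38.p6) of the plus strand, from 250 bases before to 50 bases after the start that RefSeq annotates, at chr9:5298267-5298566, chr9:5308599-5308898 and chr9:5345226-5345525, and capitals mark the motif matches found on either strand. The RefSeq start is the gene start given above for *Casp1*, and lies 21 and 46 bases downstream of it for *Casp4* and *Casp12*, and motif positions are counted from the RefSeq start.
Casp1 promoter: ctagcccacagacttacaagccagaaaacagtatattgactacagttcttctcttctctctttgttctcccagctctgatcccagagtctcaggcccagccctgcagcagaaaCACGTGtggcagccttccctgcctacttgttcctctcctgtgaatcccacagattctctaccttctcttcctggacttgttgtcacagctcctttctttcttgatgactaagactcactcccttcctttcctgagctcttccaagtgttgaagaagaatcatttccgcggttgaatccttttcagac
Casp4 promoter: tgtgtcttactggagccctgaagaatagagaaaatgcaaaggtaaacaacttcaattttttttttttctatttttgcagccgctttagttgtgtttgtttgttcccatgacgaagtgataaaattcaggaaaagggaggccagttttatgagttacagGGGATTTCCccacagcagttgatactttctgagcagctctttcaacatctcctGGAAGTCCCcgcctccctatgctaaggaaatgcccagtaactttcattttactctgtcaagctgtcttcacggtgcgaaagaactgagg
Casp12 promoter: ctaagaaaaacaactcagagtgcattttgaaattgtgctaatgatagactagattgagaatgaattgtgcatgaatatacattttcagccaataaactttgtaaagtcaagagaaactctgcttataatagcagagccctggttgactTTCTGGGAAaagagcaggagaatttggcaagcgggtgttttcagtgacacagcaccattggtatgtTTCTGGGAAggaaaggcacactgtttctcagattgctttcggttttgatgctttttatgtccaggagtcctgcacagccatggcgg
The *Casp1* window holds 1 canonical E-box, CACGTG, the motif that BMAL1 with its partner CLOCK binds, from -137 to -132 relative to the start. None of the windows of the other 7 genes holds one, and 7.15% of 32851 promoter windows of the same length do. The *Casp8* window is set by a RefSeq start 7128 bases downstream of the gene start given above, so that gene start was not searched. The *Casp4* window holds 2 matches to the κB core GGGANTTCC, the motif of NF-κB, at -92 to -84 and -39 to -31, against 1.68% of all windows with at least 1. The *Casp12* window holds 2 matches to GAS, TTCNNNGAA, the motif of STAT factors, at -102 to -94 and -36 to -28, against 8.30% of all windows with at least 1. The E-box variant CACGTT (in 4.68% of all windows) and the ISRE core of interferon-responsive genes (in 3.44%) were in none of the 9 windows of the 8 genes. A match is a stretch of letters and was not tested for binding.

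The values are normalized read counts, that is, the reads of a gene after division by a size factor that evens out sequencing depth. The reads on listed genes numbered between 10312791 and 14156639 per library. The targeted gene *Bmal1*, listed as *Arntl*, had 358 and 342 normalized counts in the control libraries and 341 and 289 in the libraries labelled *Bmal1* cKO, and its log2 fold change (log2FC) was -0.16 (95% interval -0.52 to 0.21, adjusted p = 0.389 from limma), or -0.44 after the correction described below (adjusted p = 0.0629). The difference in the targeted transcript thus did not pass the test over the whole gene, and directions below compare the libraries as labelled. The values are sums over the gene, so loss of single exons could not be checked. The study itself reported BMAL1 as abolished in the epithelium of its knockout mice by immunoblot and immunohistochemistry. Across 13975 tested genes the log2FC followed the GC content of the exons (Spearman's rho -0.62, a description over genes that are not independent), so each member is also given after a loess correction of every library for GC content and length. GC content thus moves with the result, and whether a technical or a biological difference underlies the trend was not tested. The correction removes the trend whatever its origin. The general epithelial marker *Epcam* had 17455 to 21771 normalized counts per library and a log2FC of -0.0044 (0.66 after the correction, when it was called higher, adjusted p = 0.0320 from limma). The log2FC of the epithelial markers ran from -3.62 for *Chga*, of enteroendocrine cells, to 2.79 for *Lgr5*, of stem cells. *Lgr5* had 24.5 and 76.2 normalized counts in the control libraries and 275 and 339 in the *Bmal1* cKO libraries. With 1 library left out its log2FC lay between 1.99 and 3.59, and it was not called without the first or the second *Bmal1* cKO library. Of 16 epithelial markers 4 were higher and 5 lower, which is 25% and 31.2% against 29.0% and 27.7% of all genes tested (8 and 2 after the correction, which is 50% and 12.5% against 17.7% and 16.1%, with the median log2FC going from -0.27 to 0.28), with sums between 212680 and 317560 normalized counts per library. Of 23 tested leukocyte markers 18 were called lower and all 23 had a negative log2FC, and the sum of the list was 22621 and 23408 normalized counts in the control libraries against 1776 and 2156 in the *Bmal1* cKO libraries. Of 14 stromal and vessel markers 12 were called lower and all 14 had a negative log2FC, with sums of 16205 and 3763 against 532 and 619, and *Des*, a muscle filament, had 0 reads in 1 *Bmal1* cKO library. The control libraries differed between themselves, since the plasma cell gene *Jchain* had 7216 normalized counts in the first and 59.3 in the second. The part of these other cells in the results below was not tested.

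Among the 8 genes, *Casp1*, *Casp2*, *Casp6* and *Apaf1* rose in the *Bmal1* cKO libraries and none was lower, at an adjusted p under 0.05 from limma, two-sided, over the 13983 genes tested. The background is broad, since 29.0% of all tested genes were higher and 27.7% lower. The median log2FC of the 8 genes was 0.43 against -0.04 for all tested genes. At an unadjusted p under 0.05 the number lower was also 0, as it was with edgeR and DESeq2. Each family held both genes that rose and genes that were not called. The plot of the members by library shows 7 genes with both *Bmal1* cKO libraries above both control libraries, as for 40.3% of all tested genes (in 41.7% both were below), and *Casp12*, whose groups overlap.

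**Figure D1:**
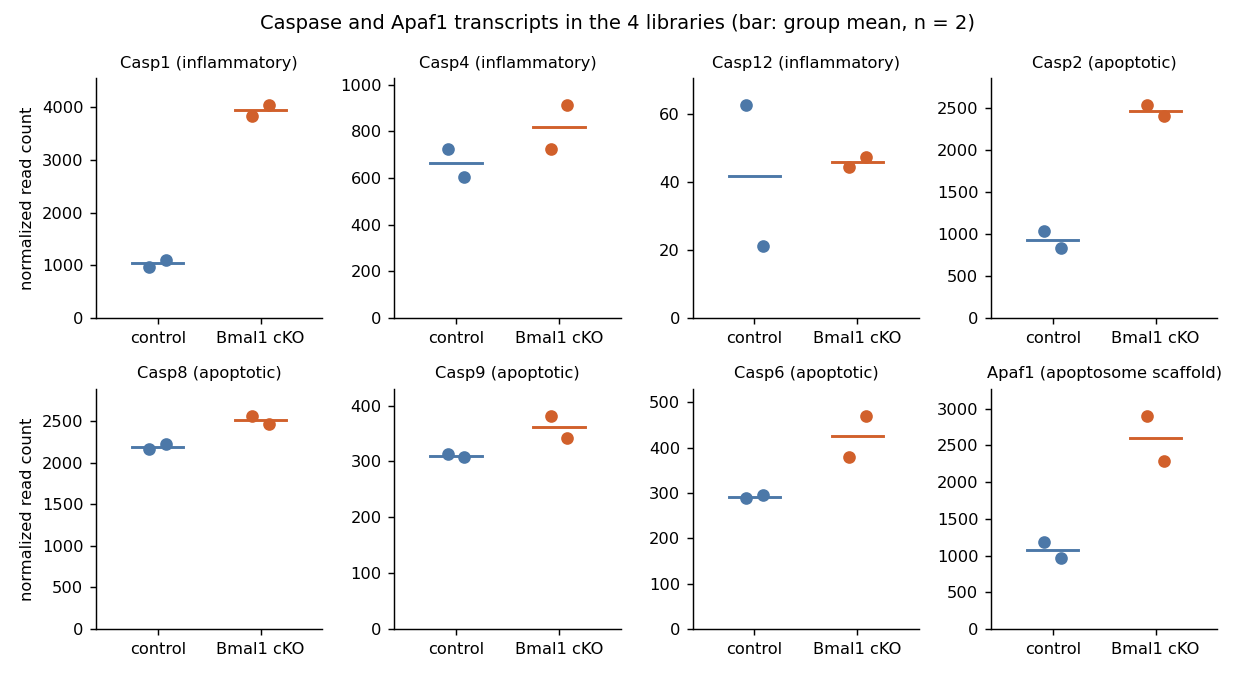
Normalized read counts (y axis, from 0, scaled per gene) of the 8 genes in the 2 control (blue) and 2 *Bmal1* cKO (orange) libraries, with dots for libraries and bars for group means. The *Bmal1* cKO mean is 3.78, 2.64 and 2.42 times the control mean for *Casp1*, *Casp2* and *Apaf1*, and 1.24, 1.15 and 1.17 times for *Casp4*, *Casp8* and *Casp9*.

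*Casp1*, the effector of inflammasomes, had 975 and 1107 normalized counts in the control libraries and 3832 and 4036 in the *Bmal1* cKO libraries. Both *Bmal1* cKO libraries were thus far above both control libraries, and each pair was close together. The means were 1041 ± 93.4 and 3934 ± 145 (SD, n = 2 each), a ratio of 3.78 and a log2FC of 1.92 (SE 0.10, adjusted p = 5.33e-04 from limma). By log2FC it stood at place 249 of the 13983 genes tested, the highest among the 8 genes, whereas after the correction described above it stood at 808 of 13975, behind *Casp2* at 723. After correcting for GC and length the log2FC was 1.04 (95% interval 0.81 to 1.27, adjusted p = 0.00395 from limma), so the rise was smaller and still called. *Casp1* has a low exon GC content of 41.1%, on the side where tested genes tended to be higher.

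*Casp4*, its neighbour and the sensor of cytosolic lipopolysaccharide, had 722 and 604 normalized counts in the control libraries and 726 and 912 in the *Bmal1* cKO libraries. The lowest *Bmal1* cKO library lay just above the highest control library, and the difference did not pass the test, with a log2FC of 0.30 (95% interval -0.10 to 0.70, adjusted p = 0.155 from limma). Its exon GC content of 41.0% is close to that of *Casp1*. After the correction its log2FC was -0.70 (95% interval -1.08 to -0.32, adjusted p = 0.0218 from limma), so that its direction turned and it was called lower. Per kilobase of exon, *Casp1* stood at 3.35 and 4.54 times the level of *Casp4* in the control libraries and at 13.1 and 11.0 times in the *Bmal1* cKO libraries.

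*Casp12* was near the lower end of what was read, with 62.5 and 21.2 normalized counts in the control libraries and 44.2 and 47.3 in the *Bmal1* cKO libraries. The *Bmal1* cKO values fell between those of the 2 control mice, so the groups overlapped and no difference was detectable (log2FC 0.32, 95% interval -1.11 to 1.75, adjusted p = 0.653 from limma). Its direction rested on 1 library, with log2FC values of -0.44 without the second control library and 1.08 without the first. The first control library also had the larger sum of stromal and vessel markers, but not of leukocyte markers. The part of such cells in the *Casp12* value was not tested. After the correction the value was -0.92 (adjusted p = 0.247 from limma).

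Of the apoptotic initiators, *Casp2* changed most. *Casp2*, a caspase that the PIDDosome activates after DNA damage or centrosome gain, had 1040 and 829 normalized counts in the control libraries and 2534 and 2405 in the *Bmal1* cKO libraries. Both *Bmal1* cKO libraries stood above both control libraries, at means of 2470 ± 91.8 against 935 ± 149 (SD, n = 2 each). The log2FC was 1.41 (SE 0.13, adjusted p = 8.90e-04 from limma), and 1.08 after the correction (adjusted p = 0.00631). *Casp2* thus passed the test under both.

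*Casp8*, the initiator of the death receptor pathway and a brake on necroptosis, had 2165 and 2230 normalized counts in the control libraries and 2568 and 2467 in the *Bmal1* cKO libraries. The groups did not overlap, but the gap was small beside that of *Casp2*, and the log2FC of 0.20 (95% interval -0.02 to 0.41, adjusted p = 0.102 from limma) did not pass the test. Its interval places any rise under 0.41 on the log2 scale. After the correction it was -0.18 (adjusted p = 0.155), and it was -0.030 when libraries were scaled to their totals, which moved the median of all tested genes by -0.22.

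*Casp9*, the initiator that the apoptosome activates, had 313 and 307 normalized counts in the control libraries and 382 and 342 in the *Bmal1* cKO libraries. Again the groups did not overlap and the difference was not called (log2FC 0.22, 95% interval -0.11 to 0.55, adjusted p = 0.201 from limma). It has the highest exon GC content of the 8 genes, 55.8%, and the correction raised its log2FC to 0.94 (95% interval 0.64 to 1.24, adjusted p = 0.00637), which passed the test. Scaling to library totals gave -0.0054. Of its exonic bases, 94 (1.81%) overlap genes on the opposite strand that are not listed, and strandedness of the counting was not given in the sources used here.

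*Casp6*, an executioner that cleaves nuclear lamins, had 288 and 295 normalized counts in the control libraries and 380 and 470 in the *Bmal1* cKO libraries. The *Bmal1* cKO libraries were both higher but spread more widely, and the log2FC of 0.53 (SE 0.15, adjusted p = 0.0304 from limma) passed the test narrowly. The call was lost after the correction (0.32, adjusted p = 0.153), with DESeq2 (adjusted p = 0.0552), with library total scaling (adjusted p = 0.128) and without the first control (adjusted p = 0.130), the second control (adjusted p = 0.113) or the second *Bmal1* cKO library (adjusted p = 0.130).

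*Apaf1*, the apoptosome scaffold, had 1179 and 970 normalized counts in the control libraries and 2905 and 2294 in the *Bmal1* cKO libraries. The *Bmal1* cKO libraries spread more widely than the control libraries but did not overlap with them, with means of 1075 ± 148 and 2599 ± 432 (SD, n = 2 each). Its log2FC was 1.27 (SE 0.16, adjusted p = 0.00196 from limma) and 0.79 after the correction (95% interval 0.38 to 1.20, adjusted p = 0.0201). The scaffold thus rose with both processings, while its partner *Casp9* rose with only 1 of them. Per kilobase of exon, the ratio of *Apaf1* to *Casp9* was 2.17 and 1.82 in the control libraries and 4.38 and 3.86 in the *Bmal1* cKO libraries. This higher ratio was seen only in the uncorrected values, since the log2FC of the ratio was 1.05 without the correction and -0.15 with it.

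After the correction, 4 of the 8 genes were higher, *Casp1*, *Casp2*, *Casp9* and *Apaf1*, and 1 was lower, *Casp4*, against a background of 17.7% of 13975 genes higher and 16.1% lower. *Casp1*, *Casp2* and *Apaf1* were the 3 called higher both with and without it. The plot of log2FC against GC content shows where each gene stands along the trend.

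**Figure D2:**
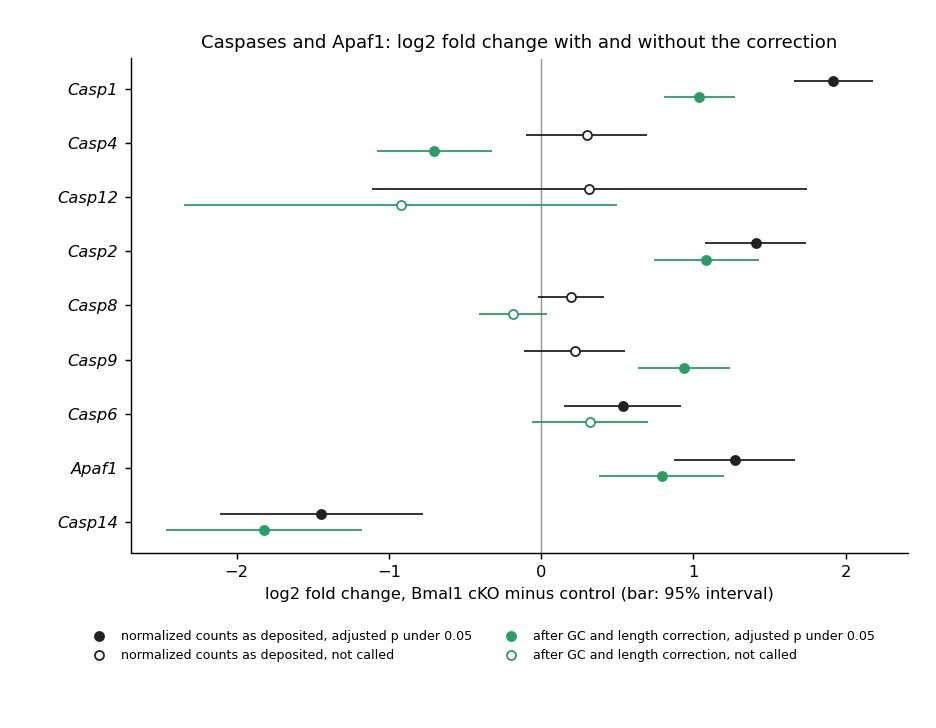
Log2FC of the 8 genes and of *Casp14* (x axis, *Bmal1* cKO minus control, bars are 95% intervals from limma), from the normalized counts (black) and after correcting for GC and length (green), with filled dots for an adjusted p under 0.05. *Casp1* moves from 1.92 to 1.04 and *Casp4* from 0.30 to -0.70, whereas *Casp9* moves up from 0.22 to 0.94.

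**Figure D3:**
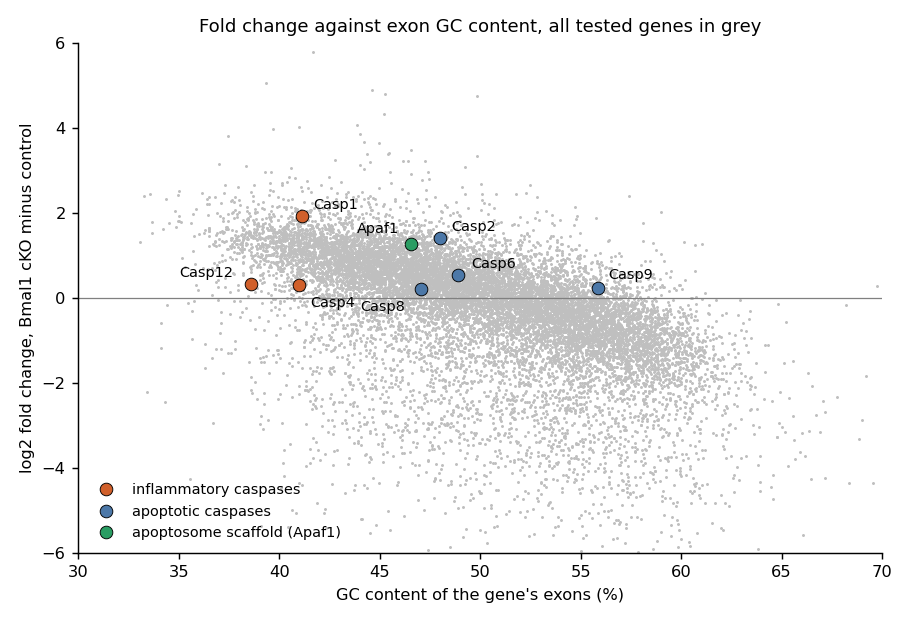
Log2FC (y axis) against exon GC content in percent (x axis) for the tested genes, each a grey dot (35 genes lie outside the axes), with the 8 genes in colour. *Casp1*, *Casp4* and *Casp12* lie on the low-GC side, at 41.1%, 41.0% and 38.6%, and *Casp9* on the high-GC side, at 55.8%, where more genes are below 0.

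The inflammatory and the apoptotic caspases were then set against each other. The median log2FC was 0.32 for the 3 inflammatory and 0.38 for the 4 apoptotic caspases, and the ranges of the families overlapped (0.30 to 1.92 and 0.20 to 1.41). After the correction the medians were -0.70 and 0.63. The mean of log2(normalized count + 1) over the inflammatory caspases minus that over the apoptotic caspases was -0.92 and -1.38 in the control libraries and -0.98 and -0.81 in the *Bmal1* cKO libraries. The groups overlapped, and the difference of their means, 0.26, was smaller than the standard deviation between the control libraries, 0.33. *Casp1* carried that difference, which was -0.28 without it. After correcting for GC and length the difference turned to -0.74, with -0.44 and -0.88 in the control libraries and -1.46 and -1.33 in the *Bmal1* cKO libraries, and these groups did not overlap. No test was made of this score, since its members were chosen with results of these data known. The sign of the change in this score thus depended on the correction.

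Levels were compared between genes per kilobase of exon. This length joins all annotated exons of a gene, so levels and ratios between genes also depend on the annotation. In the control libraries the order was *Casp8* (760 normalized counts per kilobase), *Casp1* (695), *Casp4* (179), *Casp2* (132), *Apaf1* (119), *Casp9* (59.7), *Casp6* (52.2) and *Casp12* (10.9). Only *Casp2* and *Apaf1* overlapped among neighbours in that order, at 118 to 147 and 107 to 131. In the *Bmal1* cKO libraries *Casp1* led with 2628 per kilobase, followed by *Casp8* (870), *Casp2* (350), *Apaf1* (288), *Casp4* (221), *Casp6* (76.1), *Casp9* (69.6) and *Casp12* (11.9). Here only *Casp6* and *Casp9* overlapped, at 68.0 to 84.2 and 65.8 to 73.4. *Casp1* and *Casp8* thus changed places at the top, and *Casp4* stood behind *Casp2* and *Apaf1*, in values without the correction. Of the summed level of the 7 caspases described here, *Casp1* made up 34.8% and 38.8% in the control libraries and 61.6% and 62.7% in the *Bmal1* cKO libraries, whereas *Casp8* made up 40.0% and 40.4% against 21.4% and 19.8%.

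**Figure D4:**
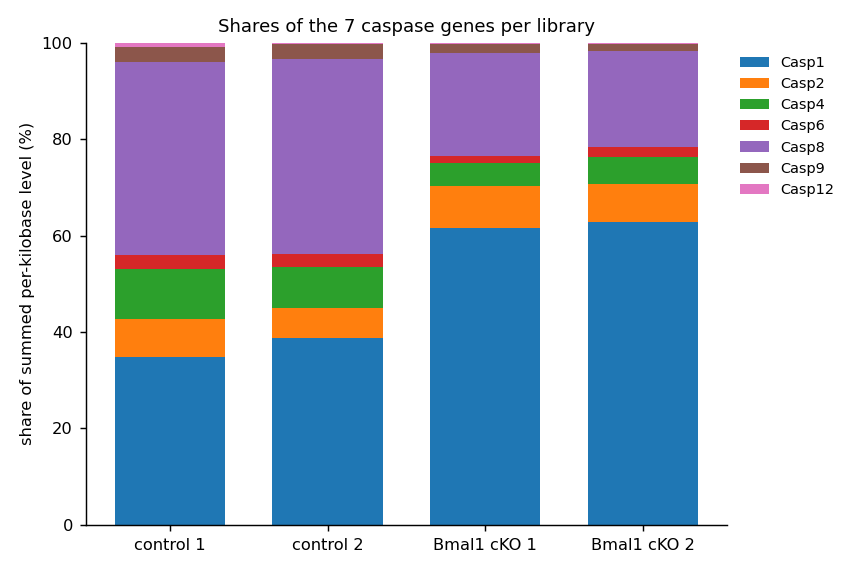
Share of each of the 7 caspase genes (stacked bars, y axis in percent) in the summed normalized counts per kilobase of exon, for each of the 4 libraries. The mean share of *Casp1* is 36.8% in the control and 62.2% in the *Bmal1* cKO libraries, and that of *Casp8* is 40.2% and 20.6%.

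*Casp14*, the caspase of skin differentiation, which is not among the 8 genes, had 156 and 140 normalized counts in the control libraries and 46.3 and 62.2 in the *Bmal1* cKO libraries. It was lower (log2FC -1.44, adjusted p = 0.00706 from limma, and -1.82 after the correction), and the call was lost without the first control library (adjusted p = 0.0651).

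Of the partners of caspase-1, some rose, some fell and 3 were not called. Before the correction, the share that fell was near that of all genes tested. Of 19 tested inflammasome partners, 11 were higher and 5 lower (57.9% and 26.3%, against 29.0% and 27.7% of all genes tested), with a median log2FC of 0.78. After the correction 7 were higher and 5 lower (36.8% and 26.3%, against 17.7% and 16.1% of all genes), with a median of -0.04. *Pycard*, the ASC adaptor that joins receptors to caspase-1, had 1025 and 935 normalized counts in the control libraries and 2361 and 3013 in the *Bmal1* cKO libraries, a log2FC of 1.44 (adjusted p = 1.00e-03 from limma). *Il18*, the cytokine that caspase-1 matures in epithelium, rose from 877 and 693 to 2186 and 3066, by a log2FC of 1.73 (adjusted p = 0.00155). *Nlrp6*, an inflammasome receptor of gut epithelium, rose from 797 and 1150 to 1975 and 2234, by a log2FC of 1.13 (adjusted p = 0.00512). In these 3 genes both *Bmal1* cKO libraries were above both control libraries, and each was still called higher after the correction, at 0.99, 1.03 and 1.76. Without the second *Bmal1* cKO library the call of *Nlrp6* was lost (adjusted p = 0.0638). *Naip1*, a receptor for bacterial secretion needle protein, rose by a log2FC of 1.53 (adjusted p = 5.33e-04 from limma). *Naip1*, *Naip2*, *Naip5* and *Naip6* are close paralogs whose reads the counting could have split. Their values of 1.53, 1.28, 1.21 and 1.50 (0.99, 0.83, 0.63 and 0.75 after the correction) are thus uncertain gene by gene.

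*Il1b*, the other cytokine that caspase-1 matures, was lower, with 879 and 4261 normalized counts in the control libraries and 265 and 173 in the *Bmal1* cKO libraries (log2FC -3.17, adjusted p = 0.0148 from limma). *Nlrp3*, the inflammasome receptor best known from macrophages, had 94.6 and 639 against 31.9 and 12.2 (log2FC -3.57, adjusted p = 0.0250). For both, the second control library was several times the first and the groups did not overlap. Both calls were lost without the first *Bmal1* cKO library (adjusted p = 0.0893 and 0.0904) or the second (adjusted p = 0.127 and 0.173), and that of *Nlrp3* also without the second control library (log2FC -2.20, adjusted p = 0.0918). The size rested on which control library was kept, since *Il1b* was at -4.31 without the first and -2.03 without the second, and *Nlrp3* at -4.94 without the first. These genes moved in the same direction as the leukocyte markers, whose sums are given above, and the part of leukocytes in their fall was not tested. *Gsdmd*, the pore-former that caspase-1 and caspase-4 cut, had 3263 and 3233 normalized counts against 2454 and 1786, a log2FC of -0.63 (adjusted p = 0.0215), and -0.04 after the correction (adjusted p = 0.855), so its call depended on the correction, and it was lost as well without the first control (adjusted p = 0.118), the second control (0.108) or the second *Bmal1* cKO library (0.0641). *Mefv* (pyrin) and *Ninj1* (the membrane rupture protein) were lower at log2FC values of -3.08 and -2.49, and lower with the correction as well, at -3.04 and -1.12.

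**Figure D5:**
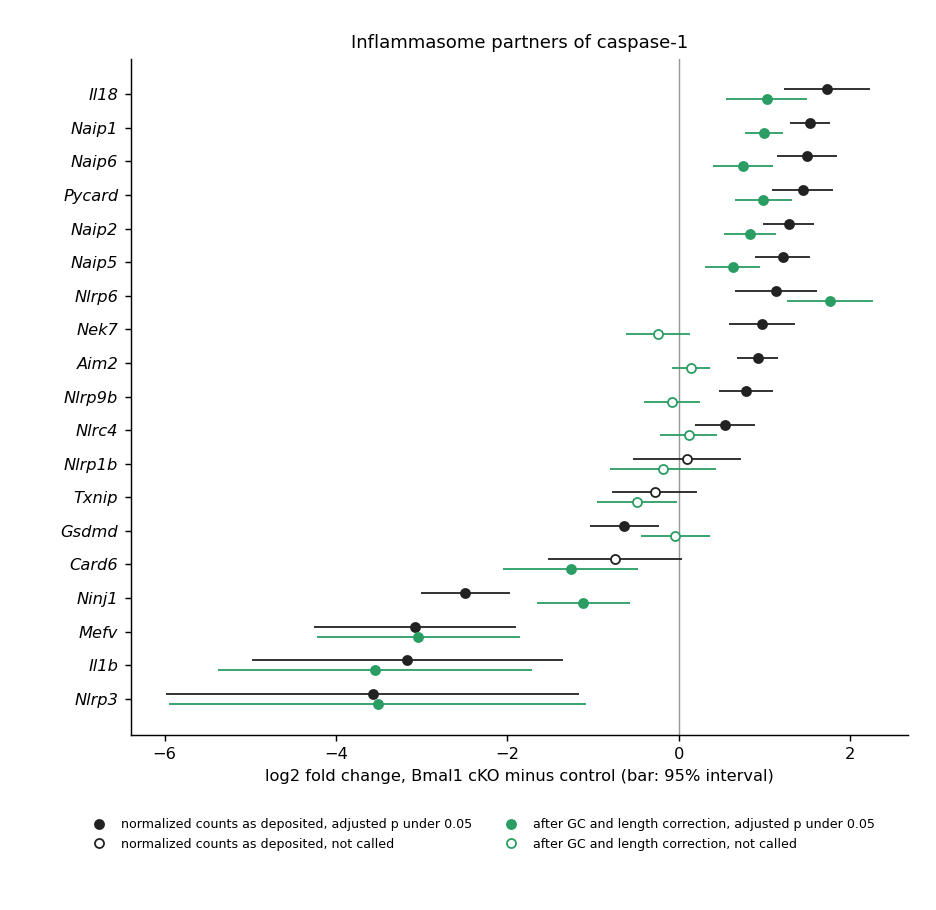
Log2FC of the 19 tested inflammasome partners (x axis, *Bmal1* cKO minus control, bars are 95% intervals from limma), ordered by their uncorrected value, from the normalized counts (black) and after correcting for GC and length (green), with filled dots for an adjusted p under 0.05. *Il18*, the *Naip* genes, *Pycard* and *Nlrp6* lie above 0 and *Ninj1*, *Mefv*, *Il1b* and *Nlrp3* below 0 in both.

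On the side of the apoptosome, genes that feed and restrain it were measured. Of 14 tested mitochondrial factors and inhibitors of apoptosis (IAPs), 5 were higher, 2 lower and 7 not called (35.7% and 14.3%, against 29.0% and 27.7% of all genes), and after the correction 1 was higher and 2 lower (7.14% and 14.3%, against 17.7% and 16.1%). *Cycs*, the cytochrome c that binds APAF1, had 2060 and 2107 normalized counts in the control libraries and 1275 and 1456 in the *Bmal1* cKO libraries, a log2FC of -0.61 (adjusted p = 0.00507 from limma) and -1.57 after the correction (adjusted p = 0.00316). It was therefore lower under both processings, opposite in direction to *Apaf1*. *Xiap*, which blocks caspase-9, had 2300 and 2207 against 6032 and 6085, a log2FC of 1.43 (adjusted p = 5.33e-04) that was 0.12 after the correction (adjusted p = 0.302). *Birc2*, an IAP of TNF receptor complexes, rose by 1.24 (adjusted p = 0.00164) with 0.46 after the correction (adjusted p = 0.0599), and *Htra2*, a mitochondrial protease that counters IAPs, was lower at -1.48 (adjusted p = 0.00313) with -0.55 (adjusted p = 0.105). The calls of *Xiap*, *Birc2* and *Htra2* were thus lost with the correction. *Diablo*, the other antagonist of IAPs, had only 36.4 to 45.3 normalized counts per library and no detectable difference (log2FC 0.16, 95% interval -0.69 to 1.01).

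Around caspase-2, the platform genes *Pidd1* and *Cradd* were not called higher with the enzyme. Of 6 genes, 1 was higher, 2 lower and 3 not called, and after the correction 1 was higher (*Madd*, log2FC 0.73, adjusted p = 0.00713 from limma, against 0.27 and uncalled before) and 1 lower, too few to read against the shares of all genes (29.0% and 27.7%, and 17.7% and 16.1% after the correction). *Pidd1*, the core of the PIDDosome, had 216 and 253 normalized counts in the control libraries and 102 and 79.7 in the *Bmal1* cKO libraries, a log2FC of -1.37 (adjusted p = 0.00446 from limma) that was -0.30 after the correction (adjusted p = 0.287) and -1.25 without the second control library (adjusted p = 0.0505). *Cradd*, the adaptor that links PIDD1 to caspase-2, had 58.3 and 61.0 against 39.1 and 27.0, a log2FC of -0.85 (95% interval -1.75 to 0.04, adjusted p = 0.0905), which was called with library total scaling (-1.08, adjusted p = 0.0496). *Anxa2*, an annexin, was lower at -1.36, and *Trp53inp1*, a p53 target, higher at 1.01, which became -0.24 and uncalled after the correction and lost its call without the first (adjusted p = 0.0653) or the second *Bmal1* cKO library (adjusted p = 0.0507). *Casp2* was thus called higher under both processings, and neither *Pidd1* nor *Cradd* was higher under either.

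Around caspase-8, genes of the death receptor complexes were measured. Of 17 tested genes, 2 were higher, 4 lower and 11 not called (11.8% and 23.5%, against 29.0% and 27.7% of all genes), with a median log2FC of -0.14, and after the correction 3 were higher and 0 lower (17.6% higher, against 17.7%) with a median of 0.03. *Tradd*, the adaptor of TNF receptor 1, turned from lower (log2FC -0.51, adjusted p = 0.0425 from limma) to higher (0.77, adjusted p = 0.0181) with the correction, and the first call was lost without the first control (adjusted p = 0.109), the second control (0.203) or the second *Bmal1* cKO library (0.162). *Cflar*, the FLIP protein that pairs with caspase-8 and restrains it, had 1193 and 1297 normalized counts in the control libraries and 2050 and 2090 in the *Bmal1* cKO libraries. Its log2FC was 0.73 (adjusted p = 0.00198 from limma) and 0.31 after the correction (adjusted p = 0.0465). The corrected call was lost when the replicate numbers were added to limma as a block (adjusted p = 0.0711). Per kilobase, the ratio of *Casp8* to *Cflar* was 7.95 and 7.53 in the control libraries and 5.49 and 5.17 in the *Bmal1* cKO libraries. *Cyld*, a deubiquitinase of these complexes, rose by 1.06 (0.14 and uncalled after the correction), while *Rbck1* and *Sharpin*, subunits of the linear ubiquitin ligase, were lower at -1.35 and -1.06 (-0.12 and -0.39, both uncalled, after the correction). *Sharpin* was also not called without the first control (adjusted p = 0.0791) or the second *Bmal1* cKO library (adjusted p = 0.0508). The receptor *Fas* (log2FC 0.55, adjusted p = 0.0690), the adaptor *Fadd* (-0.50, adjusted p = 0.0747), and the necroptosis genes *Ripk3* (-0.25, adjusted p = 0.190) and *Mlkl* (0.28, adjusted p = 0.109) did not pass the test. Their 95% intervals were 0.03 to 1.08, -0.99 to -0.01, -0.61 to 0.11 and -0.04 to 0.61. With library total scaling *Fadd* (-0.72, adjusted p = 0.0229) and *Ripk3* (-0.47, adjusted p = 0.0452) were called lower. *Fasl* had 1 to 10 reads per library and was too low to be tested.

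Among 15 proteins that caspases cleave, 7 were higher, 5 lower and 3 not called (46.7% and 33.3%, against 29.0% and 27.7% of all genes), with a median log2FC of 0.33. *Rock1*, the kinase whose cleavage drives membrane blebbing, rose from 1462 and 1448 normalized counts to 3983 and 3866, by a log2FC of 1.43 (adjusted p = 5.33e-04 from limma), and *Pak2* rose by 0.90 (adjusted p = 0.00115). Both were near 0 after the correction, at 0.082 and 0.030. *Krt18*, the epithelial keratin cut in apoptosis, had 5004 and 5809 against 1772 and 2398 (log2FC -1.39, adjusted p = 0.00187), and -0.51 after the correction (adjusted p = 0.0669). *Acin1*, a chromatin condensation factor, was lower under both, at -1.06 and -0.53. After the correction 4 substrates were higher and 2 lower (26.7% and 13.3%, against 17.7% and 16.1% of all genes). Over all 71 partner genes tested, 26 were higher and 19 lower, and after the correction 16 and 11, of which 12 and 9 were called in the same direction without it. As shares these were 36.6% and 26.8%, against 29.0% and 27.7% of all genes tested, and after the correction 22.5% and 15.5%, against 17.7% and 16.1%. The partner genes taken as a whole thus lay near the background.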

How the data were processed

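Total RNA of colonic epithelial cells from 2 control and 2 *Bmal1* cKO mice was sequenced by the authors, who aligned the reads to GRCm38 with STAR and used DESeq2. The counter, annotation release and strandedness were not given in the sources used here, and the labels and the methods name different library kits. The deposited values are a signal, gene counts divided by the size factor of each library, for 16015 genes. Of these values 100% were whole multiples of the worth of 1 read (tolerance 0.1 read), which gave back the reads, 10312791 to 14156639 per library. The authors' columns of fold changes and p-values were not used.

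Values were taken to log2(value + 1), which understates changes of low genes, and genes with a mean of at least 10 entered limma 3.58.1 (R 4.3.3, trended variance), two-sided, with Benjamini-Hochberg adjustment over all 13983 genes and a threshold of 0.05. GC content and union exon length came from GENCODE M21 (16003 genes matched), and each library was also corrected for both by loess (span 0.3). The alternatives were pseudocounts of 0.5 and 5, no filter or a mean of at least 50, TMM and library total scaling, edgeR 4.0.16 and DESeq2 1.42.0 on the recovered reads, a replicate block, and leaving out each library. The fitting steps were tested on simulated data.

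The 8 genes and the partner and marker lists were chosen with earlier results of these data known. Beside the 8 genes, a set group of partners was named, with, in each list, the 2 genes of largest rise and the 2 of largest fall among those with a mean of at least 50 and an adjusted p under 0.05, and genes named beyond these (*Naip2*, *Naip5*, *Naip6*, *Mefv*, *Ninj1*, *Tradd*, *Madd*, *Epcam*, *Chga*, *Lgr5*, *Jchain*, *Des*, *Fasl*) were added after their values were seen. Replicates are separate mice. The limma p-values rest on the spread between 2 mice per group, moderated towards the variance trend over all genes tested. Some genes of the partner lists are not reported here.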

Additional observations from a re-analysis of the deposited data

How the results depend on the processing

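*Casp1*, *Casp2* and *Apaf1* kept their direction and their call in all 15 alternatives run. *Casp6* lost its call in 7 of them. The direction turned for *Casp4* after correcting for GC and length (log2 fold change -0.70, the same with the replicate block), for *Casp12* after it (-0.92) and without the second control library (-0.44, against 1.08 without the first), for *Casp8* after it (-0.18) and with library total scaling (-0.030), and for *Casp9* with library total scaling (-0.0054). Among the other genes named, the correction turned *Diablo* to -0.13, *Trp53inp1* to -0.24, *Fas* to -0.10, *Ripk3* to 0.27, *Tradd* to 0.77 and *Epcam* to 0.66, with or without the block, and library total scaling turned *Diablo* to -0.059. With 1 library left out, *Epcam* lay between -0.16 and 0.15 and *Jchain* between -5.69 and 1.21. The cause was not tested. The correction called 1 of the 8 genes lower where none had been, and turned the inflammatory minus apoptotic difference from 0.26 to -0.74. Without the correction and with 1 library left out the difference ranged from 0.025 to 0.49.

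Over all tested genes the correction moved the calls from 3871 lower and 4059 higher to 2250 and 2480, and with the block to 1952 and 2178. Partner calls moved to 11 lower and 16 higher, and with the block to 10 and 15. Leaving out 1 library gave 3 or 4 of the 8 genes higher, 2205 to 2852 genes lower and 2654 to 3154 higher, and 12 to 17 partner genes lower and 16 to 23 higher, the lowest partner counts without the second *Bmal1* cKO library, and such fits assume that the lone library varies like the others. Library total scaling called 4885 genes lower and 3091 higher.

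Whether the replicate numbers pair the mice was not given in the sources used here. The deviations of same-numbered libraries correlated at -0.09, and 1 correlation over genes cannot decide this. With the replicate block 4 of the 8 genes were called higher and none lower, against 3899 and 3789 genes in all, and *Casp6* had an adjusted p of 0.0329. With the block added to the correction, *Cflar* (adjusted p = 0.0711) and *Nlrp3* (adjusted p = 0.0583) were not called, whereas *Birc2* (adjusted p = 0.0450) and *Krt18* (adjusted p = 0.0273) were. With 2 libraries a group, no exact test can pass, and a low gene such as *Casp12* has an interval that runs from -1.11 to 1.75 on the log2 scale.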
